A study of Mus musculus with 82 samples.

Results

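The extracellular matrix genes described here are collagens, laminins, integrins, matrix metalloproteases (Mmp) with an inhibitor (Timp), and the Adam and Adamts metalloproteases, together with Postn, Ibsp and Lum. They were chosen by the start of the gene symbol, and Postn, Ibsp and Lum by name, among probes with a single symbol in the platform annotation, and 50 genes of 21915 features fitted the rule, each with 1 probe. The 21915 features are the probes of the array after averaging those of the same symbol, and 3439 of them had a gene name. The members comprised 13 collagens, 3 laminins, 10 genes of the integrin group, 8 Mmp and Timp genes, 13 Adam and Adamts genes, and Postn, Ibsp and Lum. Another probe, named only through its accession, would have met the rule on symbols and was not included. Itgb1bp1 and Itgb1bp2 entered through their symbols and encode proteins that bind an integrin, not integrin subunits.

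Liver RNA of adult BXD mice was measured on 2-channel arrays against a mix of RNA from C57BL/6J (B6) embryos of day 17.5. BXD strains are recombinant inbred lines whose genomes are mosaics of B6 and DBA/2J (D2), and no allele or treatment beyond the strain is named for any group. The 17 BXD strains gave 32 male and 40 female arrays. Besides these there were 2 arrays of B6 males against the same mix, 6 of B6 liver directly against D2 liver (males against males and females against females), and 2 of B6 and D2 liver labelled as enriched, with no word on what was enriched. The series text gives an age of 10 to 20 weeks, 3 unfasted males per line and 18 BXD strains, whereas the array labels hold 17 strains and both sexes. The labels do not say whether mice of a strain were pooled or which parts of the embryo entered the mix. Each value is a ratio, so signal brightness and distance from background were not analysed here, and a ratio near 1 does not show that a gene was detected in either RNA. The number of arrays limits the precision.

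The deposited log ratios were read as log10, because 94 of all values lie exactly at -2 or 2, a 100-fold range, and every log2 value and fold here rests on that reading. The ratio was read as channel 2 over channel 1, and arrays with liver (or B6) in channel 1 were turned. As deposited, the 33 pairs of opposite orientation against the embryo mix had correlations of -0.895 to -0.555 across probes. With this reading 9 hepatocyte genes had a higher median than 10 embryonic genes on 74 of 74 arrays, so the direction is likely, and it is an assumption here and not a result. The pairs of B6 against D2 arrays correlated at -0.02 (males) and 0.13 (females) after turning, so their 2 orientations did not repeat each other. An array of BXD11 females, whose title and channel labels disagree on the swap, was kept by its channel labels. It correlated at 0.835 to 0.846 with the other BXD11 female arrays after turning.

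Collagens are the main structural proteins of the matrix: fibrillar types form the fibres, type IV forms the network of basement membranes, and others link fibres or anchor cells. Laminins are the other main component of basement membranes, integrins are the receptors by which cells hold on to both, and the Mmp, Adam and Adamts proteases cut matrix and cell-surface proteins. In healthy adult liver the matrix is sparse and is made largely by stellate cells, portal fibroblasts and endothelium, while the late embryo is building bone, cartilage, muscle and skin.

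Promoter sequences of the 3 members with the lowest liver ratios are shown because these genes stand together at the end of the range described next. They are the 150 bases before the annotated start, on the plus strand, from RefSeq (GRCm38.p6). Capitals mark the motifs searched on either strand. These were the TATA box (TATAAA), the CCAAT box named for its letters, and the GC box (GGGCGG). Both motifs marked for Ibsp are matches on the minus strand, shown as their reverse complement.
Postn, chr3:54360957-54361106: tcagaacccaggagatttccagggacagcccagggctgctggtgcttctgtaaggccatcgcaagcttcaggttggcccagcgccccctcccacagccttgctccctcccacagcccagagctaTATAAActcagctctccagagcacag
Col5a1, chr2:27886275-27886424: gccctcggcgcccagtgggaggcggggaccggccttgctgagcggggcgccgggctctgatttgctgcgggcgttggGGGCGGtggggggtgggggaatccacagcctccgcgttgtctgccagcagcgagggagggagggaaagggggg
Ibsp, chr5:104299137-104299286: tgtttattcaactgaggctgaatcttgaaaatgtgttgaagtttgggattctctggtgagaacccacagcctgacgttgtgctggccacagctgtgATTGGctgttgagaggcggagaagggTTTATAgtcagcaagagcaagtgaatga
The Postn and Ibsp windows hold a TATA box near the start and the Col5a1 window a GC box. A second annotated start of Postn (window chr3:54359117-54359266) holds none of the 3 motifs in its 150 bases. Within 250 bases before the start, 12.4% of 32851 mouse promoters hold the TATA box, 33.9% the CCAAT box and 32.7% the GC box. Promoters were at hand for 30 of the 50 members. Among the 16 members lower in liver by the rule given next, 12 had a promoter, and the TATA box was found in 5 of these (Col11a2, Col17a1, Ibsp, Mmp13, Postn), the CCAAT box in 4 and the GC box in 5. These matches are letters in a window and were not tested against expression.

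Transcripts of 16 members were at least 2-fold lower in adult liver than in the embryo mix, and no member was higher in liver by as much as 2-fold on average. These 16 of 50 members had an adjusted p under 0.05 and a log2 ratio of -1 or below (limma over 13 strain means, Benjamini-Hochberg adjustment), and 0 members met the same criteria in the other direction. Among all features 9.17% were lower and 4.69% higher by these criteria. By adjusted p alone, whatever the size, 25 members were lower and 14 higher, against 35.6% and 48.3% of all features. The median member stood at log2 -0.17 and the median feature at 0.07. In this bulk RNA, fewer cells of a type and less RNA per cell cannot be told apart. The embryo mix is 1 reference on every array, so its own spread is outside these tests. If the deposited values were log2 and not log10 ratios, 5 members would be lower by this size.

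**Figure D1:**
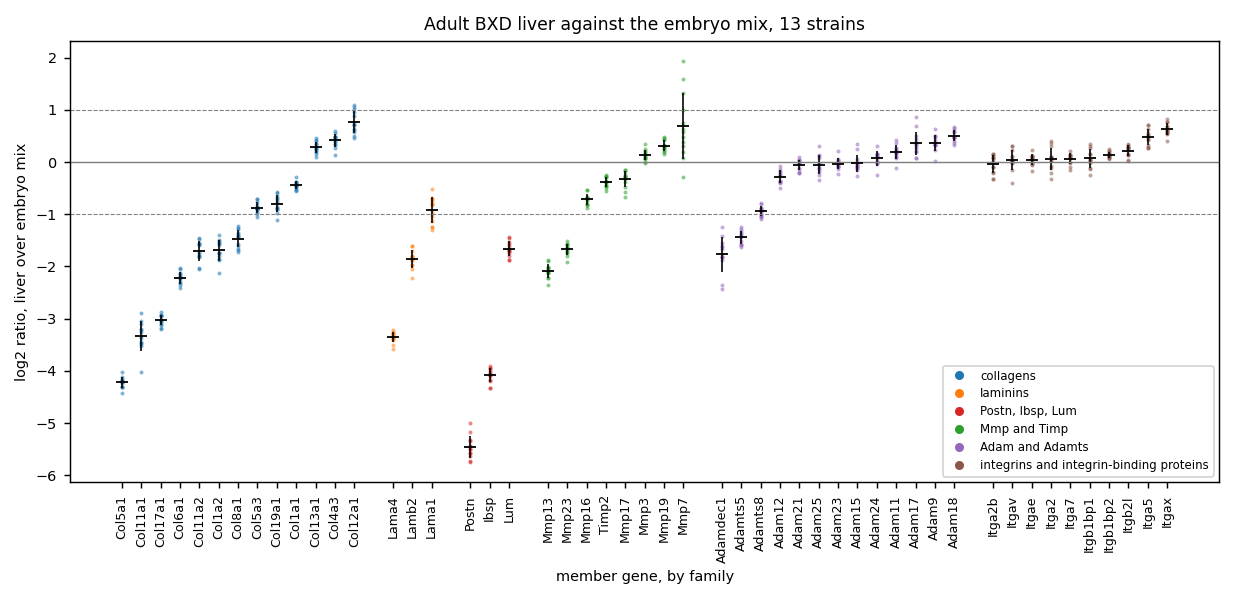
Log2 ratio of adult liver over the embryo mix for all 50 members, grouped by family; dots are the means of 13 BXD strains, bars the mean ± SD, and dashed lines mark log2 ratios of -1 and 1. Postn lies lowest at -5.46, and the 10 genes of the integrin group all lie between -0.04 and 0.63.

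Postn, Ibsp and Lum were all lower in liver. Periostin (Postn), a matricellular protein of periosteum, heart valves and fibroblasts, ran from a lowest strain mean of -5.75 (BXD32) through a median of -5.49 to a highest of -5.00 (BXD5). That is 44.1-fold lower in liver (log2 -5.46 ± 0.21 SD, n = 13 strains, adjusted p = 3.9e-20). All 34 strain and sex values were below 0. Bone sialoprotein (Ibsp), made by cells of mineralising bone and cartilage, ran from -4.33 (BXD6) through -4.07 to -3.91 (BXD16), 17-fold lower on average (log2 -4.09 ± 0.14, adjusted p = 1.2e-20). Lumican (Lum), a small proteoglycan that spaces collagen fibrils, ran from -1.88 (BXD11) through -1.68 to -1.43 (BXD18), 3.17-fold lower (log2 -1.66 ± 0.14, adjusted p = 1.3e-15). No strain came near the embryo level for any of these 3 genes, and a pair of B6 male arrays gave -5.46, -3.79 and -1.46.

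The fibrillar collagens were spread widely. Col5a1, a chain of type V collagen that starts and limits the width of type I fibrils, ran from -4.43 (BXD11) through -4.20 to -4.02 (BXD19), 18.7-fold lower (log2 -4.22 ± 0.10, n = 13 strains, adjusted p = 9.4e-22). Col11a1, a chain of the cartilage type XI collagen, ran from -4.02 (BXD28) through -3.33 to -2.89 (BXD16), 10.1-fold lower (log2 -3.33 ± 0.28, adjusted p = 4.2e-16). Its partner Col11a2 ran from -2.05 (BXD28) through -1.72 to -1.45 (BXD16), 3.26-fold lower (log2 -1.71 ± 0.19), although its 2 orientations stood at -1.24 and -2.09. The other type V chain measured, Col5a3, lay just outside the size threshold at -0.87 ± 0.10, and its strain range of -1.05 to -0.70 did not meet that of Col5a1.

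Both chains of type I collagen, the main fibre of bone, skin and scar, were lower in liver, but by different sizes. Col1a2 ran from -2.12 (BXD28) through -1.74 to -1.39 (BXD12), 3.23-fold lower (log2 -1.69 ± 0.20, adjusted p = 4.4e-14). Col1a1 ran only from -0.56 (BXD28) through -0.45 to -0.29 (BXD15), 1.36-fold lower (log2 -0.44 ± 0.07, adjusted p = 7.8e-11). The 2 ranges did not overlap, and the Pearson r of the chains was -0.08 over the 34 strain and sex values and 0.04 over the 13 strain means. The 2 probes were not compared in level, and a ratio measured by 1 probe per gene has no second measurement here.

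Among the other collagens, 3 were lower by at least 2-fold. Col17a1, a transmembrane collagen of the skin's hemidesmosomes, ran from -3.19 (BXD28) through -3.04 to -2.87 (BXD2), 8.16-fold lower (log2 -3.03 ± 0.10, adjusted p = 3.5e-20). Col6a1, a chain of the beaded filaments around cells, ran from -2.42 (BXD16) through -2.21 to -2.03 (BXD12), 4.64-fold lower (log2 -2.21 ± 0.11, adjusted p = 3.3e-18). Col8a1, a short-chain collagen of vessel walls, ran from -1.73 (BXD28) through -1.43 to -1.23 (BXD18), 2.76-fold lower (log2 -1.47 ± 0.17, adjusted p = 3.5e-14). All 3 were below 0 in every strain. Together with the fibrillar chains Col5a1, Col11a1, Col11a2 and Col1a2, this made 7 of 13 collagens, with a family median of -1.47. Col19a1, at -0.79 ± 0.16, was lower in all 13 strains without reaching the size threshold.

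Laminins were lower in every case. Lama4, the alpha chain of vessel and muscle laminins, ran from -3.59 (BXD28) through -3.35 to -3.21 (BXD5), 10.2-fold lower (log2 -3.35 ± 0.10, n = 13 strains, adjusted p = 1.1e-20). Lamb2, a beta chain of the kidney glomerulus and the neuromuscular junction, ran from -2.23 (BXD28) through -1.84 to -1.60 (BXD31), 3.63-fold lower (log2 -1.86 ± 0.17, adjusted p = 2.6e-15). Lama1, the alpha chain of early embryonic basement membranes, lay just above the threshold at -0.92 ± 0.25, with strains from -1.30 (BXD12) to -0.52 (BXD31).

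The proteases were divided. Of the 8 Mmp and Timp genes, 2 were lower by at least 2-fold. Mmp13, a collagenase of growing bone and cartilage, ran from -2.35 (BXD32) through -2.10 to -1.89 (BXD19), 4.26-fold lower (log2 -2.09 ± 0.13, adjusted p = 3.2e-17). Mmp23 ran from -1.92 (BXD32) through -1.65 to -1.50 (BXD31), 3.18-fold lower (log2 -1.67 ± 0.11, adjusted p = 8.4e-17). The membrane-type Mmp16 was at -0.71 ± 0.11 and Mmp17 at -0.33 ± 0.15, while the inhibitor Timp2, which also takes part in activating pro-Mmp2, was at -0.39 ± 0.09.

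Of the 13 Adam and Adamts genes, 2 passed both criteria. Adamdec1, an Adam relative known from macrophages and dendritic cells, ran from -2.44 (BXD15) through -1.75 to -1.25 (BXD5), 3.41-fold lower (log2 -1.77 ± 0.33, adjusted p = 1.1e-11). Adamts5, a protease that cuts aggrecan in cartilage, ran from -1.63 (BXD21) through -1.42 to -1.25 (BXD11), 2.72-fold lower (log2 -1.44 ± 0.13, adjusted p = 2.6e-15), and Adamts8 lay just outside at -0.94 ± 0.09. The Adam genes known mainly from testis lay near 0 (Adam21 at -0.06, Adam24 at 0.07, Adam25 at -0.05), apart from Adam18 below.

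The integrin group did not share the low ratios. By adjusted p alone none of its 10 genes was lower, against 35.6% of all features. By the same criterion 4 were higher, against 48.3% of all features, and the family median was 0.07. Itga5, the alpha chain of the fibronectin receptor, ran from 0.26 (BXD31) through 0.49 to 0.71 (BXD18), 1.39-fold higher in liver (log2 0.47 ± 0.15, n = 13 strains, adjusted p = 2.5e-08). Itgax, the alpha chain known as CD11c on dendritic cells and some macrophages, ran from 0.40 (BXD15) through 0.61 to 0.82 (BXD21), 1.55-fold higher (log2 0.63 ± 0.11, adjusted p = 3.3e-11). Both were above 0 in all 13 strains. Itgb2l (0.22 ± 0.11) and Itgb1bp2 (0.14 ± 0.06), the latter a muscle protein, were the other 2. Itga2b at -0.04 ± 0.18, Itgav at 0.05 ± 0.19, Itga2 at 0.06 ± 0.21, Itgae at 0.05 ± 0.10, Itga7 at 0.06 ± 0.10 and Itgb1bp1 at 0.07 ± 0.18 did not pass the test.

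The members higher in liver by adjusted p alone numbered 14 of 50, against 48.3% of all features. All 14 were higher by less than 2-fold on average. The highest was Col12a1, a collagen that decorates type I fibrils, with strains from 0.47 (BXD16) through 0.72 to 1.09 (BXD28) and a 1.70-fold ratio (log2 0.77 ± 0.21, n = 13 strains, adjusted p = 2.0e-09). Mmp7, or matrilysin, an epithelial protease, followed at 0.69 ± 0.63 (adjusted p = 7.8e-04) and had the widest strain range of all members, from -0.29 in BXD2 to 1.94 in BXD18. The BXD2 values were below 0 in both sexes and the BXD18 values were 1.80 and 2.08, whereas in BXD12 the female value was 2.95 and the male value 0.22. Next came Adam18 at 0.50 ± 0.11, Col4a3, a basement membrane chain of the kidney glomerulus, at 0.41 ± 0.13, Adam9 at 0.37 ± 0.15 and Adam17, the sheddase of tumour necrosis factor, at 0.36 ± 0.22. The remaining ones were Mmp19 (0.32 ± 0.10), Col13a1 (0.28 ± 0.11), Adam11 (0.19 ± 0.13) and Mmp3 (0.13 ± 0.10).

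Small ratios depended on the orientation of the array. Liver in channel 1 and liver in channel 2 gave opposite signs for 14 of the 50 members, none of which was among the 16 lower ones. The share of all features with opposite signs is not given here. The 16 were picked by a mean log2 of -1 or below, and the largest orientation gap of any member was 1.10. Their agreement in sign therefore adds little to that choice. Among the 14 higher members, 10 were above 0 in both orientations, and Adam11, Adam17, Col13a1 and Itgb2l were not. Adam17 had the widest gap, at 0.91 with liver in channel 1 and -0.20 with liver in channel 2. All 14 were above 0 in the pair of B6 male arrays.

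Other matrix genes, from lists of known matrix components, behaved as follows. Among 25 measured glycoproteins and proteoglycans, 17 were lower by at least 2-fold and 0 higher. Examples were Matn2 at -3.82 ± 0.21, Sparc, a collagen-binding protein of bone, at -3.64 ± 0.20, fibromodulin (Fmod) at -3.51 ± 0.07 and the cartilage protein Comp at -3.04 ± 0.10. Of 14 genes for collagen synthesis and cross-linking, 5 were lower by at least 2-fold: the collagen chaperone Serpinh1 (-3.77 ± 0.10), lysyl oxidase Lox (-3.38 ± 0.20), Pcolce (-3.03 ± 0.12), Plod2 (-2.69 ± 0.16) and Fkbp7 (-1.90 ± 0.18). Among 8 other genes of matrix proteolysis, Htra1 was lower by at least 2-fold (-3.78 ± 0.15), and Pzp (2.94 ± 0.41), Serpinf2 (2.14 ± 0.21) and cathepsin L (Ctsl, 2.08 ± 0.47) were higher by at least 2-fold. The heparan sulphate proteoglycans Sdc4 (1.88 ± 0.32) and Sdc1 (1.36 ± 0.26) were the 2 genes of 6 at focal adhesions that were higher by this size. Of 6 genes of TGF-beta signalling, Ccn2 was lower by at least 2-fold (-2.19 ± 0.24). Smad2 (-0.64), Eng (-0.57), Smad4 (-0.33) and Acvrl1 (-0.30) were lower by less, while Tgfb1 was higher by less than 2-fold (0.67 ± 0.24).

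Markers of other cell types gave mixed ratios of liver over embryo mix. Of the measured markers, 3 of 5 for skeletal and smooth muscle were lower by at least 2-fold (Tnnc2 at -5.13 ± 0.12, Tnnt3 at -3.81 ± 0.08, Myh11 at -2.08 ± 0.14), 2 of 5 for bone and cartilage (Comp and Matn3, which are matrix genes too) and 6 of 7 for cell division. The other bone and cartilage genes were Hapln1, lower by less (-0.88), and Acp5 (0.31) and Acan (0.15), both above 0. In muscle Myod1 (-0.41) and Cnn1 (-0.33) were lower by less than 2-fold. The muscle list's median ran from -2.61 to -1.28 over the 34 values and that of the bone and cartilage list from -1.43 to 0.00. Of 4 stellate cell and fibroblast genes, Acta2 was lower by this size at -1.06 ± 0.09, and the retinyl ester enzyme Lrat stood at 0.82 ± 0.25. The endothelial list had 1 of 7 lower (Emcn, -1.22 ± 0.12), the leukocyte list 1 lower and 1 higher of 5, and the macrophage list 0 of 4 in either direction. The part of these cell types in the members' ratios was not tested.

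Females and males of the BXD strains differed by small amounts in 18 members, of which 13 were higher and 5 lower in females (limma on 34 values, strain as a block). Among all features 33.7% were called, so the members' share of 36% lies near the background. The largest difference was 1.35-fold (log2 0.44). The values spread more widely around 0 in males: the SD over all features averaged 0.91 in males and 0.85 in females, and was larger in males in 11 of 17 strains. Of the 16 members lower in liver, 13 had a positive female minus male difference, as did 74.6% of the 2010 features lower in liver by at least 2-fold, against 53.4% of all features. When arrays were scaled to the same median absolute deviation, 6 of these 16 were positive and the called members split into 8 higher and 8 lower in females. After quantile normalization they split into 9 and 5. The share of all features called is not given here for either of these settings. With a term for the run of consecutive accessions, 12 members were called, against 21.9% of all features. These 3 settings together left 8 of the 18 called with the same sign, with 4 higher and 4 lower in females. The share of all features kept by all 3 settings is not given here, so these 8 cannot be set against a background. Of these 8, Lama1 and Col8a1 were not called in the 13 strains with both orientations. Of the 9 accession runs, 5 held both sexes. In most of these 5 the females and males came from different strains, so a difference within a run mixes sex with strain. In the 4 strains with 1 orientation alone, 0 members were called (limma), and 17 of the 18 kept their sign.

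**Figure D2:**
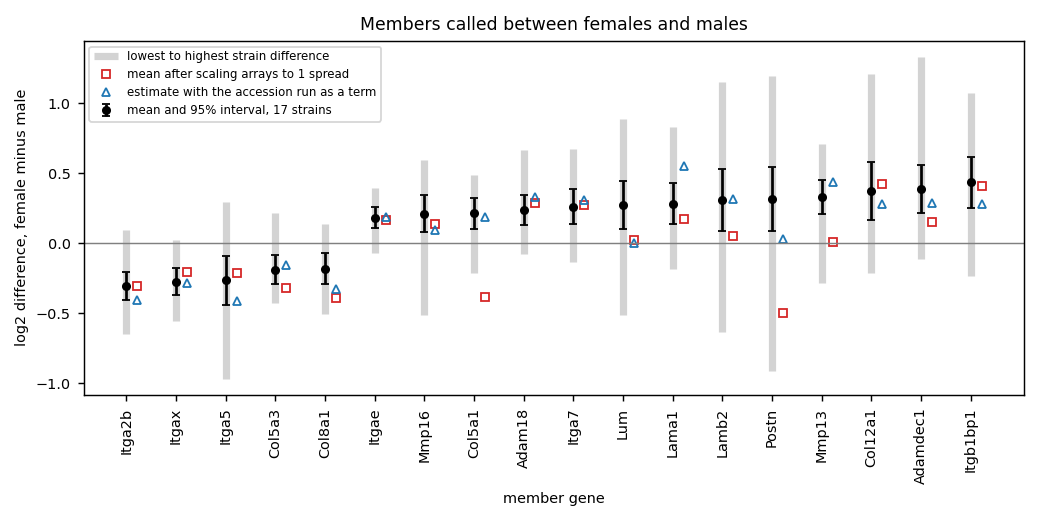
Log2 difference, female minus male, for the 18 members called between the sexes; black points are means over 17 BXD strains with their 95% intervals, grey bars run from the lowest to the highest strain difference, red squares are means after scaling the arrays to the same spread, and blue triangles are estimates with the accession run as a term. The square falls below 0 for Col5a1 (-0.39) and Postn (-0.50), which are above 0 without scaling.

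The 4 members lower in females under scaling, quantile normalization and the run term were 3 integrin chains and a collagen. Itga2b, the platelet integrin chain also called CD41, averaged -0.18 ± 0.15 in females and 0.12 ± 0.24 in males (SD, n = 17 strains each). The female value was the lower one in 16 of 17 strains (log2 difference -0.31, 95% interval -0.41 to -0.20, adjusted p = 1.7e-04, limma). The female mean was also lower in all 5 runs that held both sexes, most of which set different strains against each other. Itgax averaged 0.43 ± 0.16 in females and 0.71 ± 0.19 in males and was lower in females in 16 of 17 strains (difference -0.27, adjusted p = 2.4e-04). Itga5 averaged 0.28 ± 0.28 in females and 0.54 ± 0.27 in males, a difference of -0.27 (adjusted p = 0.020), with strain differences from -0.97 (BXD9) to 0.29 (BXD27). Col8a1 averaged -1.55 ± 0.16 in females and -1.36 ± 0.24 in males, a difference of -0.18 (adjusted p = 0.011) that was negative in 14 of 17 strains. In the 13 strains with both orientations it was -0.13 (adjusted p = 0.069), and in the 4 others -0.35. Col5a3 averaged -0.95 ± 0.12 and -0.76 ± 0.16, a difference of -0.19, and missed the threshold with the run term (adjusted p = 0.24).

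The 4 members higher in females under the same settings were Itgae, Itga7, Adam18 and Lama1. Itgae, the alpha chain CD103 of intraepithelial T cells, averaged 0.08 ± 0.13 in females and -0.10 ± 0.18 in males, a difference of 0.18 in the same direction in 15 of 17 strains (adjusted p = 6.6e-04). Itga7, a laminin receptor chain of muscle, averaged 0.17 ± 0.15 in females and -0.09 ± 0.19 in males, a difference of 0.26 (adjusted p = 0.0027). Adam18 averaged 0.53 ± 0.19 and 0.29 ± 0.28, a difference of 0.24 (adjusted p = 0.0013). Lama1 averaged -0.76 ± 0.31 in females and -1.05 ± 0.25 in males, a difference of 0.28 (adjusted p = 0.0047) that was 0.55 with the run term. In the 13 strains with both orientations it was 0.19 (adjusted p = 0.051), and in the 4 others 0.59.

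The others passed without these settings and not with all of them. Itgb1bp1, a protein that binds the tail of the beta 1 integrin, had the largest difference at 0.44, from 0.22 ± 0.33 in females and -0.21 ± 0.23 in males (adjusted p = 8.9e-04), positive in 15 of 17 strains and in all 5 runs with both sexes, yet with an adjusted p of 0.075 with the run term. Col12a1 averaged 0.83 ± 0.43 in females and 0.46 ± 0.30 in males and gave an adjusted p of 0.082 with the run term. Mmp13 averaged -1.97 ± 0.17 in females and -2.29 ± 0.21 in males, a difference of 0.33 that was 0.01 after scaling. It was called after quantile normalization (0.20, adjusted p = 0.043, limma) and with the run term (0.43, adjusted p = 0.0032). Adamdec1 (0.39), Lamb2 (0.31), Lum (0.27) and Mmp16 (0.21) stayed positive after scaling without passing (0.15, 0.05, 0.02 and 0.14), while Postn (0.31 to -0.50) and Col5a1 (0.21 to -0.39) turned negative. After quantile normalization Postn (0.20) and Col5a1 (0.014) stayed above 0 without passing, and Mmp16 was called (0.17, adjusted p = 0.049, limma). Within a run, Postn ran from -0.91 to 0.40. The 32 members not called included Col1a1, at 0.01, and Col1a2, at 0.27 with an adjusted p of 0.18.

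Some markers of blood cells and other cell types were called between the sexes as well, in the fit without scaling or run term. By that fit 16.5% of all features were called higher and 17.2% lower in females. Pf4, of platelets, was higher in females by 0.43 and Gp1ba, also of platelets, lower by -0.53. Of 4 macrophage genes C1qa (0.35) and C1qb (0.37) were higher in females, while Cd5l (-0.18) and Marco (-0.10) did not pass. Of 5 leukocyte genes Ptprc (0.22) and Cd3e (0.14) were higher, and Cd4, at -0.10, was among those that did not pass. Of 4 stellate cell and fibroblast genes Lrat was higher by 0.26. The endothelial list had 2 of 7 higher and 2 lower, the cell division list 4 of 7 higher and 0 lower, and the other matrix glycoproteins 6 of 25 higher and 2 lower. The part of these cells in the members' differences was not tested.

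The strains did not differ detectably in any member. By limma's moderated F over 13 strains, with the sexes as replicates, 0 of 50 members passed (smallest adjusted p 0.14), and 1.2% of all features did. At an unadjusted p under 0.05 there were 6 members, or 12%, against 13.8% of all features. With all 17 strains, of which BXD8, BXD9, BXD14 and BXD27 had liver in channel 1 only, 10 members were called, against 25.5% of all features, and in that fit strain and dye cannot be told apart. The median SD of strain means was 0.13 over members and 0.15 over all features.

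**Figure D3:**
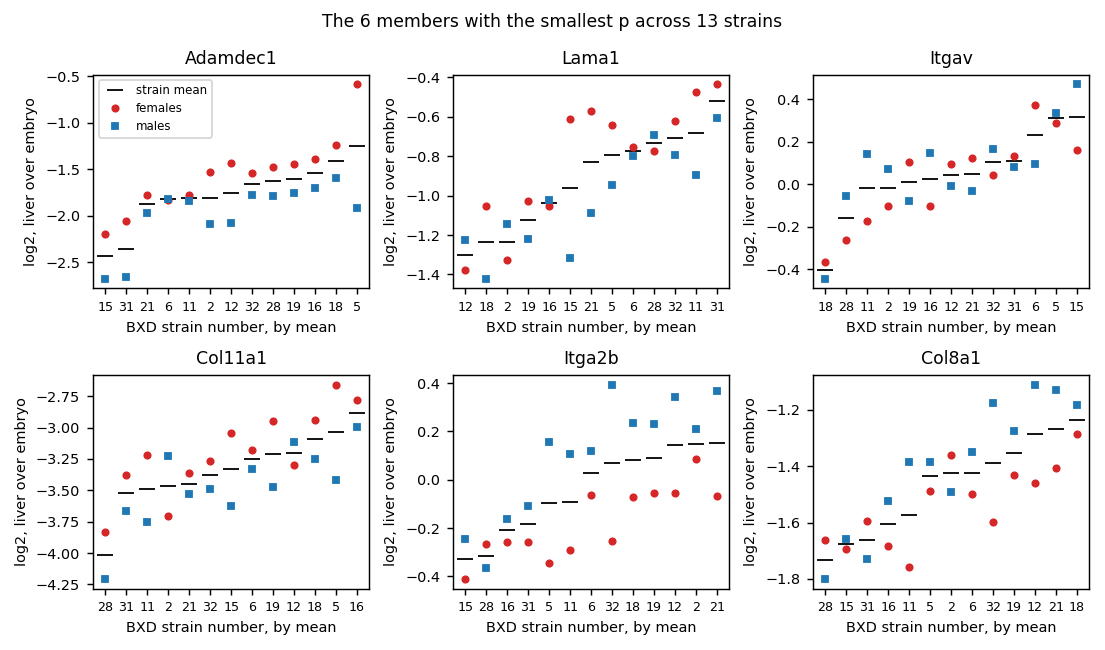
Log2 ratio of liver over the embryo mix in 13 BXD strains, ordered by strain mean, for the 6 members with an unadjusted p under 0.05 (Adamdec1, Lama1, Itgav, Col11a1, Itga2b, Col8a1); red circles are females, blue squares males and bars the strain mean. In Adamdec1 the strains BXD15 and BXD31 lie below -2 in both sexes, and none of the 6 passed adjustment.

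Adamdec1 had the smallest p (0.0046, adjusted p = 0.14, limma). Its lowest strains were BXD15 (females -2.20, males -2.68) and BXD31 (mean -2.36), and its highest was BXD5, where females stood at -0.59 and males at -1.92. The BXD5 mean therefore rests on a female value far from the male one. Without BXD5 Adamdec1 was called, the only member called when a strain was left out.

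Lama1 was lowest in BXD12 (-1.38 in females, -1.22 in males) and highest in BXD31 (-0.44 and -0.61), with an adjusted p of 0.20 over strains (limma). Itgav, the alpha chain of the vitronectin receptor, was lowest in BXD18 (-0.37 and -0.44) and highest in BXD15 (0.16 and 0.47). Col11a1 was lowest in BXD28, at -3.83 and -4.21, with the next strain at -3.52. The strain BXD28 gave the lowest mean for 11 of 50 members, where an equal share would be 3.85. It was also the lowest strain for 11.7% and the highest for 12.9% of all features, and its ratios had the largest SD of the 13 strains (0.90, range 0.80 to 0.90).

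Col8a1 and Itga2b followed each other most closely among the 1225 pairs of members. Over the 34 values Pearson r was 0.90 and Spearman rho 0.90, with r = 0.80 over 17 females, 0.93 over 17 males and 0.87 without the 2 values farthest from the Col8a1 median. BXD15 and BXD28 were the lowest strains for both, with BXD12, BXD19 and BXD21 among the 4 highest. The pair was picked as the highest of many, and both genes share every array with its spread and its reference, so this is a description. The median r over pairs was 0.03, and 7 pairs had r of at least 0.7, among them Adam15 with Itga2 (0.78) and Col11a1 with Col1a2 (0.73). Chains of the same collagen gave values that differed with the set of samples. For Col11a1 with Col11a2 r was -0.17 over the 34 values and 0.66 over the 13 strain means. For Col1a1 with Col1a2 it was 0.58 over females and -0.36 over males, and for Col5a1 with Col5a3 it was 0.00 over the 34 values and -0.06 over strain means. The laminin chains Lama4 and Lamb2 had r = 0.28 over the 34 values and 0.56 over strain means.

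The named genes whose values over the 34 strain and sex values were most like a member's were mostly not matrix genes. For Postn they were Pole3, Npm3, Pdcd5, Chrac1 and Baat (r from 0.71 to 0.74). For Col5a1 they were Tnnt2, Sftpc, Uhrf1, Comp and Lmnb1 (0.78 to 0.87), of which Comp is a matrix gene. For Col8a1, Itga2b came first, followed by Fgf18 and Melk (both 0.89), Ezr and Chil3 (both 0.88).

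B6 and D2 liver did not differ detectably in any member. Of 50 members 0 passed (limma, 4 values, smallest adjusted p 0.25), against 0.178% of all features, and 5 members, or 10%, had an unadjusted p under 0.05, against 13.2% of all features. The sex difference within this contrast was called for 0 members, with 0 at an unadjusted p under 0.05 (limma). Of all 21915 features 0 were called for it as well, and 1673 had an unadjusted p under 0.05. The 4 values are replicate 1 of each sex, a mean of both orientations, and replicate 2 of each sex, a single array with D2 in channel 1. In replicate 2 the median absolute log2 ratio of the members was 0.30 and in replicate 1 it was 0.10. Over all features it was 0.24 in replicate 2 and 0.10 in replicate 1. In replicate 2 and on the enriched arrays, which also have D2 in channel 1, strain and dye cannot be told apart.

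**Figure D4:**
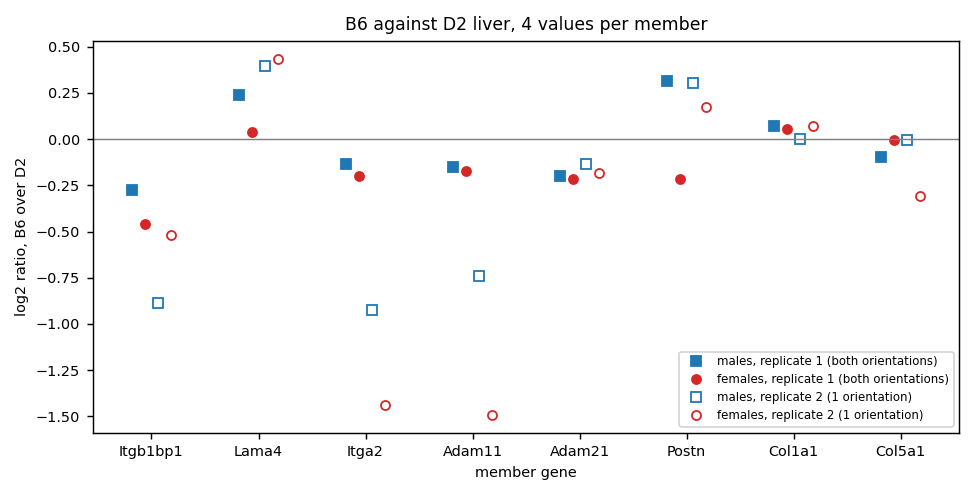
Log2 ratio of B6 over D2 liver for the 5 members with an unadjusted p under 0.05 and for Postn, Col1a1 and Col5a1; filled symbols are replicate 1 (mean of both orientations), open symbols replicate 2 (a single orientation), squares males and circles females. For Itga2 and Adam11 the open symbols lie below -0.7 while the filled ones lie between -0.20 and -0.14.

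Itgb1bp1 was lower in B6 in all 4 values, at -0.28 (males) and -0.46 (females) in replicate 1 and at -0.89 and -0.52 in replicate 2. The mean was -0.54 ± 0.26 (SD, n = 4 values, adjusted p = 0.25, limma). The enriched arrays gave -0.50 and -0.71, and adding them brought the adjusted p to 0.020, the single member call of that fit. Lama4 was higher in B6 in all 4, at 0.24, 0.04, 0.39 and 0.44 (adjusted p = 0.38). Itga2, a collagen receptor chain, stood at -0.14 and -0.20 in replicate 1 and at -0.92 and -1.44 in replicate 2 (adjusted p = 0.38). Adam11 had the same form, with -0.15 and -0.17 against -0.74 and -1.49. Adam21 was at -0.20, -0.22, -0.14 and -0.18. Of the 16 members at least 2-fold lower in liver than in the embryo mix, 11 had a mean above 0 and 5 below 0, and none passed adjustment. The share of all features with a mean above 0 is not given here, so this split has no background. The median of the means was 0.012 over all members and 0.0066 over all features. In the same order of values Postn gave 0.31, -0.22, 0.30 and 0.17, and Col5a1, below 0 each time, gave -0.094, -0.0046, -0.0033 and -0.31. Ibsp gave 0.080, 0.00035, 0.26 and -0.051. Col1a1, which was lower in liver by a smaller size, gave 0.071, 0.057, -0.0015 and 0.070. In all, 12 members had 1 sign in all 4 values, against 27.5% of all features.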

How the data were processed

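The authors deposited 1 ratio per probe for each of 82 arrays of 21936 probes, taken here as log10 and multiplied to log2. How the authors made these deposited log10 values (software, normalization, log base) is not stated in the labels or the file, both channels carry the label cy3, and array medians lie near 0. Probes of a symbol were averaged for 18 genes, none a member. Values of each strain and sex are means over orientations of means over arrays. All tests were fitted with limma 3.58.1 (R 4.3.3) by lmFit and eBayes, with Benjamini-Hochberg adjustment over 21915 features and a threshold of 0.05. Liver used 13 strains with both orientations in both sexes, sexes 34 values with strain as a block, strains 26 values with sex as a term, and B6 against D2 4 values.

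The members and gene lists were chosen with earlier results of these data known. All members could be named. The rule asked for full values of called members, of the 3 highest and lowest of each family and of Postn, Ibsp and Lum, and some of these are given by a mean or difference alone. Nothing says that same-numbered arrays of females and males share mice, so p-values measure the spread between these samples, which may be technical. In simulated data the fits recovered 100% (liver), 95.5% (sexes), 74.6% (strains) and 61.2% (B6 against D2) of changes of log2 1. Of changes of log2 0.5 they recovered 97% (liver), 76.1% (sexes), 20.9% (strains) and 8.96% (B6 against D2). The false share of calls ran from 3.88% (liver) to 10.2% (B6 against D2). The simulated noise was independent between values and held no effect of dye, run or array spread, so these shares do not cover such effects. For the strain fit each strain was put at random in a high or a low class, so its shares do not describe a single outlying strain. Simulated liver changes were called by adjusted p alone, so the liver shares do not describe the rule with the size threshold. The alternatives changed the log base, the centring or scaling, the probes, orientations, strains, sexes or replicates used, or added run, dye or replicate terms or the enriched arrays.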

Additional observations from a re-analysis of the deposited data

Results flagged for a closer look

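Among the 4 values of B6 over D2 liver, 3 of 50 members had a value standing far from the other 3 (Dixon's criterion at 95%, which chance meets in about 5% of groups). In females of replicate 2 Adam25 stood at 2.53, with the others between -0.35 and 0.09, and Adamts8 at 0.91, with the others between -0.15 and 0.00. In males of replicate 2 Itga7 stood at 0.42, with the others between 0.09 and 0.12. All 3 were single arrays of the same orientation, and the enriched arrays gave -0.12 and -0.21 for Adam25.

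In 4 of 50 members both female values lay on 1 side of 0 and both male values on the other. The share of all features with this pattern is not given here, so the count has no background. The female mean less the male mean was 0.32 for Adam12, -0.58 for Timp2, -0.34 for Col17a1 and 0.32 for Itgax. The sex term of the B6 and D2 fit called none of them (limma, adjusted p 0.66 to 0.67).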

How the results depend on the processing

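The count of 16 members lower in liver was 5 with values read as log2, 8 with a log2 ratio of -2 or below required, and 25 with no size threshold, where the count higher in liver was 14 in place of 0. The setting with no size threshold was chosen after seeing the data. Between the sexes the 18 calls became 0 in the 4 strains with 1 orientation alone. Between strains the 0 calls became 10 with all 17 strains, and between B6 and D2 they became 1 with the enriched arrays added. Leaving out 1 strain or value in turn gave 16 to 16 lower, 0 to 0 higher, 16 to 22 between the sexes, 0 to 1 between strains and 0 to 0 between B6 and D2.

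With the replicate number as a block, 20 members were called between the sexes, 21 on the same values with no block, and 0 between B6 and D2. No replicate block was fitted for liver against embryo mix or between strains. For the replicate, scaled, quantile, 4-strain and enriched fits the share of all features called is not given here. Their counts of members therefore cannot be set against a background. With arrays scaled to the same median absolute deviation the sex difference changed sign in 10 members. Of these, 3 were called with or without the scaling: Col17a1 (-0.25), Col5a1 (-0.39) and Postn (-0.50). In the 4 strains it changed sign in 9 members, of which Postn (-0.17) was called in either fit. The causes were not tested.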
